A study of Oryctolagus cuniculus with 4 samples.

Results

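The genes described here encode 6 proteins of the contractile apparatus of smooth muscle: ACTA2, ACTG2, MYH11, Tpm2, LMOD1 and DES. They were found by their symbols in the gene annotation of the matrices, where each symbol stood on a single line, and they were 6 of 18475 genes. Their identifiers were ENSOCUG00000008193 (ACTA2), ENSOCUG00000003663 (ACTG2), ENSOCUG00000013450 (MYH11), ENSOCUG00000010198 (Tpm2), ENSOCUG00000007492 (LMOD1) and ENSOCUG00000000968 (DES). The samples were single-cell suspensions of bladder mucosa from adult New Zealand rabbits, digested with collagenase II after the mucosa had been separated bluntly from the muscle layer. Of the 4 libraries, 2 were injured (Injury_1 and Injury_2), harvested at day 10 after a focal piece of mucosa had been resected, when new epithelium had just closed over the wound. The other 2 were normal (Normal_1 and Normal_2), from mucosa with no resection. No gene was altered and no drug was compared. Each library was 1 lane of droplet-based 3′ RNA sequencing. The labels do not say whether each library came from its own rabbit, and the study speaks of biological replicates, so p-values measure the spread between these samples only.

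Smooth muscle shortens when myosin filaments pull on actin filaments that are anchored at dense bodies. ACTA2 and ACTG2 are the smooth muscle actins, typical of vascular and of visceral muscle, and MYH11 is the smooth muscle myosin heavy chain, the motor itself. Tpm2 encodes a tropomyosin that lies along the actin filament, LMOD1 a leiomodin that starts new actin filaments, and DES the intermediate filament protein desmin, which ties the apparatus together. Pericytes, the cells that wrap small vessels, share part of this set. Fibroblasts that take up contractile genes in a healing wound are called myofibroblasts, and ACTA2 is the gene by which they are usually recognised.

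After quality filters, 6081, 5529, 4308 and 6027 cells were kept in Injury_1, Injury_2, Normal_1 and Normal_2, from libraries of 28745017 (Normal_1) to 47881609 (Normal_2) unique molecular identifiers (UMIs, each 1 counted RNA molecule). Pairs of libraries shared 4 to 12 cell barcodes. The tissue is labelled urothelium, but epithelial-like cells made up 2.84% to 10.2% of the cells and fibroblast-like cells 28.6% to 54.3%. Cells were clustered without the 6 genes and classes were named from other markers. The names were rebuilt here and need not match those of the study.

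Smooth muscle-like cells (clusters 10 and 24) numbered 145, 168, 221 and 209 in Injury_1, Injury_2, Normal_1 and Normal_2. All 13 smooth muscle markers in the files, such as MYL9, SYNPO2 and KCNMB1, were raised in both clusters. Pericyte-like cells (cluster 6, led by IBSP, RGS5, RGS4, HIGD1B and ABCC9) numbered 440, 435, 229 and 281, and fibroblast-like cells (clusters 0, 1, 4, 5, 19 and 26) numbered 2053, 2436, 1233 and 3273. Endothelial-like cells, 1181, 879, 1774 and 1587, should lack the contractile genes and served as the measure of background RNA from other cells. Each level is in CPM: UMIs were summed over the cells of a class in 1 sample, and a gene's sum was scaled to a total of 1000000. They were compared between cells for each gene and not between genes.

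Each of the 6 genes was highest in smooth muscle-like cells, then in pericyte-like, then in fibroblast-like and lowest in endothelial-like cells by the median of the 4 samples. ACTA2 stood at 7887, 7369, 4814 and 11592 CPM in the smooth muscle-like cells of Injury_1, Injury_2, Normal_1 and Normal_2, at 3625, 4256, 908 and 5540 in pericyte-like cells, at 181, 307, 119 and 722 in fibroblast-like cells and at 23.7, 21.3, 16.0 and 45.9 in endothelial-like cells. The ranges of the first 2 classes met, since pericyte-like cells of Normal_2 were above smooth muscle-like cells of Normal_1, while within each sample the order held. ACTG2 measured 3229, 3750, 808 and 3551 CPM in smooth muscle-like cells, 532, 555, 58.5 and 538 in pericyte-like cells and 174, 268, 45.0 and 243 in fibroblast-like cells, with 3.6 to 8.4 CPM in endothelial-like cells. For this gene the pericyte-like and fibroblast-like ranges overlapped. ACTA2 and ACTG2 are close in sequence. How reads that fit both were counted is not given in the sources used here, and the level of either is uncertain to that extent.

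The motor gene set smooth muscle-like cells apart from pericyte-like cells more than ACTA2 did, with a pericyte-like level of 0.1017, 0.143, 0.0662 and 0.0663 of the smooth muscle-like level of the same sample, against 0.460, 0.578, 0.189 and 0.478 for ACTA2. MYH11 lay at 4348, 4188, 3602 and 4728 CPM in smooth muscle-like cells, 442, 600, 238 and 314 in pericyte-like cells and 72.0, 55.9, 91.0 and 181 in fibroblast-like cells, against 6.5, 4.6, 17.4 and 14.9 in endothelial-like cells. No range overlapped the next. Tpm2 measured 6346, 6191, 4369 and 7220 CPM in smooth muscle-like cells, 1845, 1903, 867 and 1936 in pericyte-like cells and 453, 519, 313 and 809 in fibroblast-like cells. Endothelial-like cells had 13.7 to 30.2 CPM, and no range overlapped the next for this gene either.

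LMOD1 and DES were also highest in smooth muscle-like cells. LMOD1 had 383, 439, 267 and 589 CPM there, 101.6, 119, 36.2 and 78.1 in pericyte-like cells and 3.9 to 10.3 in fibroblast-like cells. Its pericyte-like level was 0.265, 0.271, 0.136 and 0.133 of the smooth muscle-like level of the same sample, a larger part than for MYH11. DES had 215, 301, 174 and 255 CPM in smooth muscle-like cells, 14.6, 11.96, 24.5 and 8.8 in pericyte-like cells and 1.7, 2.6, 3.1 and 1.8 in fibroblast-like cells. Between neighbouring classes the levels of DES, LMOD1, MYH11 and Tpm2 did not overlap. These orders are descriptions without a test, because the cells were grouped by their RNA.

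**Figure D1:**
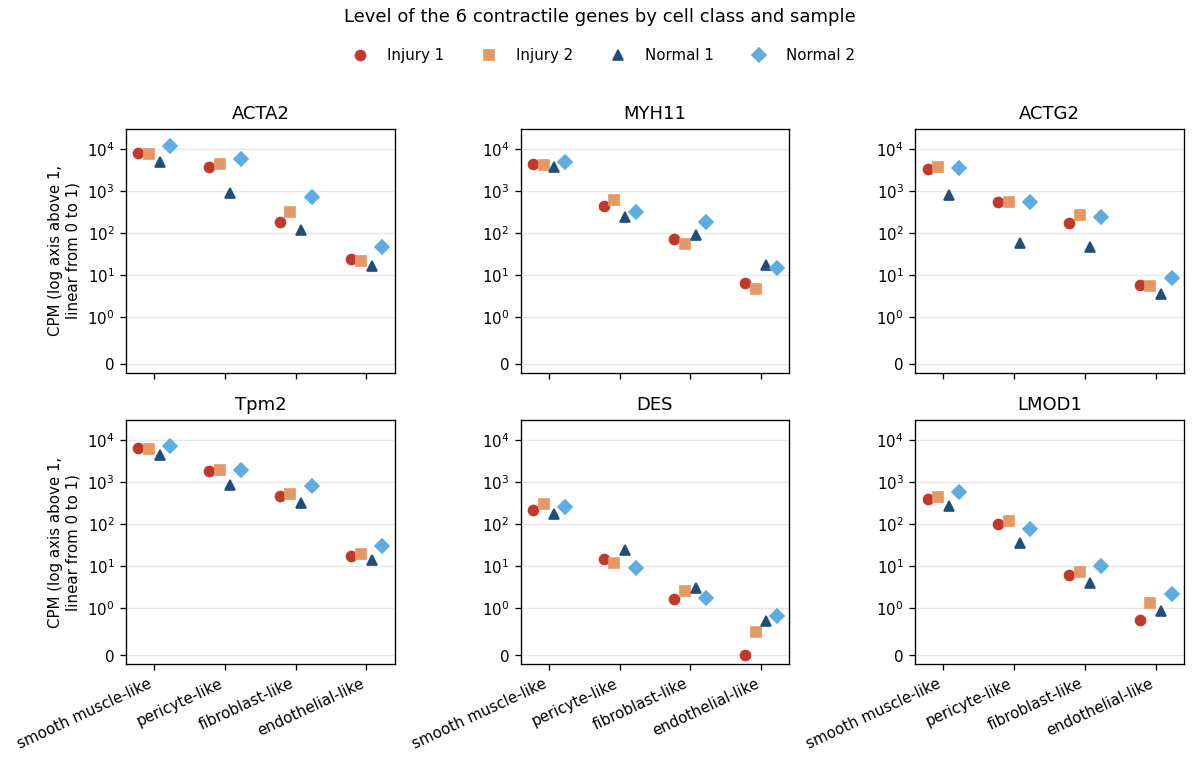
Level of each of the 6 genes (CPM, log axis above 1 and linear from 0 to 1) in the smooth muscle-like, pericyte-like, fibroblast-like and endothelial-like cells, 1 point per sample. The points step down from left to right for every gene, and ACTA2 in Normal_1 pericyte-like cells (908 CPM) lies far below the other 3 samples.

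Counted over a whole library, the cells that supplied the UMIs differed by gene. Of the DES UMIs, 71.7% to 80.1% came from smooth muscle-like cells, which were 2.38% to 5.13% of the cells. Of the Tpm2 UMIs, 44.2%, 50.4%, 29.3% and 61.3% came from fibroblast-like cells in Injury_1, Injury_2, Normal_1 and Normal_2. ACTA2 UMIs were spread over smooth muscle-like cells (35.5%, 32.8%, 70.5% and 32.0%), pericyte-like cells (43.2%, 37.5%, 12.8% and 22.0%) and fibroblast-like cells (17.3%, 27.8%, 12.7% and 42.8%). Normal_1 drew most of its ACTA2 from smooth muscle-like cells, and no other sample did.

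Smooth muscle-like cells fell into 2 clusters that differed most in 1 of the actins. Cluster 24, led by KCNMB1, DPEP2 and FILIP1L, held 21, 30, 8 and 53 cells in Injury_1, Injury_2, Normal_1 and Normal_2, and cluster 10, led by RERGL, SORBS2 and SNCG, held 124, 138, 213 and 156. ACTG2, the visceral actin, measured 13519, 12202, 4912 and 9330 CPM in cluster 24 and 1056, 1008, 651 and 1002 in cluster 10. The ratio of cluster 24 to cluster 10 was 12.8, 12.1, 7.54 and 9.31 for ACTG2, the value of Normal_1 resting on 8 cells. For ACTA2 it was 1.56, 1.39, 1.40 and 0.879, and for MYH11 1.62, 2.15, 1.95 and 1.504. Tpm2 gave 1.98, 1.96, 2.60 and 1.33, and DES 2.29, 2.46, 2.21 and 1.77. LMOD1 gave 2.40, 2.25, 1.40 and 1.91. The markers of pericytes summed to 2193, 2008, 2653 and 1241 CPM in cluster 10 and to 28.7, 324, 61.4 and 32.5 in cluster 24, and the cluster low in ACTG2 was the one higher in pericyte markers in all 4 samples. Fibroblast markers went the other way, with 22502, 45436, 9424 and 20420 CPM in cluster 24 and 4360, 6903, 1191 and 7002 CPM in cluster 10. Of the cells of cluster 24, 13.4% were among the 5% of their library with the highest doublet score, a measure of likeness to 2 cells read as 1, against 3.65% in cluster 10. The part of these in the difference between the clusters was not tested. ACTG2 was concentrated in few cells: the top 10% of smooth muscle-like cells held 74.4%, 72.8%, 46.4% and 63.7% of its UMIs, against 25.4% to 36.5% for Tpm2.

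Fibroblast-like cells were not uniform for these genes. In cluster 5, led by PTPRQ, MMP3, HHIP and WIF1, ACTA2 stood at 437, 842, 330 and 1639 CPM and Tpm2 at 1052, 1401, 575 and 1471. In cluster 4, led by EREG, TCF21 and FAM162B, ACTA2 stood at 339, 378, 92.1 and 646 CPM and Tpm2 at 863, 790, 406 and 1034. MYH11 was also present in both, at 290, 272, 187 and 317 CPM in cluster 5 and at 263, 84.0, 97.5 and 245 in cluster 4. Both clusters carried the 3 genes in injured and normal samples alike, with Normal_1 lowest in each of them except for MYH11 in cluster 4.

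In clusters 0 (led by MFAP5, LVRN, SFRP2 and PCOLCE2) and 1 (led by APOD, CARD6 and INMT) ACTA2 and MYH11 were near the background. ACTA2 in cluster 0 was at 12.6, 11.9, 37.5 and 116 CPM, 0.533, 0.560, 2.35 and 2.53 times the level in endothelial-like cells of the same sample, and the injured values are read as background. MYH11 in cluster 0 was at 4.5, 3.0, 29.3 and 45.5 CPM, 0.693, 0.645, 1.68 and 3.06 times the endothelial level. Tpm2 was above the background here too, with 163, 103, 141 and 134 CPM in cluster 0, 9.54, 5.41, 10.3 and 4.45 times the endothelial level. ACTG2 in cluster 0 was at 10.2, 12.8, 41.1 and 52.6 CPM, 1.72, 2.34, 11.3 and 6.27 times the endothelial level. These values are near the endothelial level in the injured samples and above it in the normal ones. Epithelial-like cells, which should also lack these genes, had 29.6 CPM of ACTG2, 81.9 of ACTA2 and 51.0 of MYH11 in Normal_2. Against that level cluster 0 of Normal_2 was higher in ACTG2 (52.6 CPM) and ACTA2 (116 CPM) but not in MYH11 (45.5 CPM). Cluster 1 had 24.3, 45.5, 32.1 and 71.1 CPM of ACTG2 (4.10, 8.34, 8.82 and 8.47 times), above the background in each sample.

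**Figure D2:**
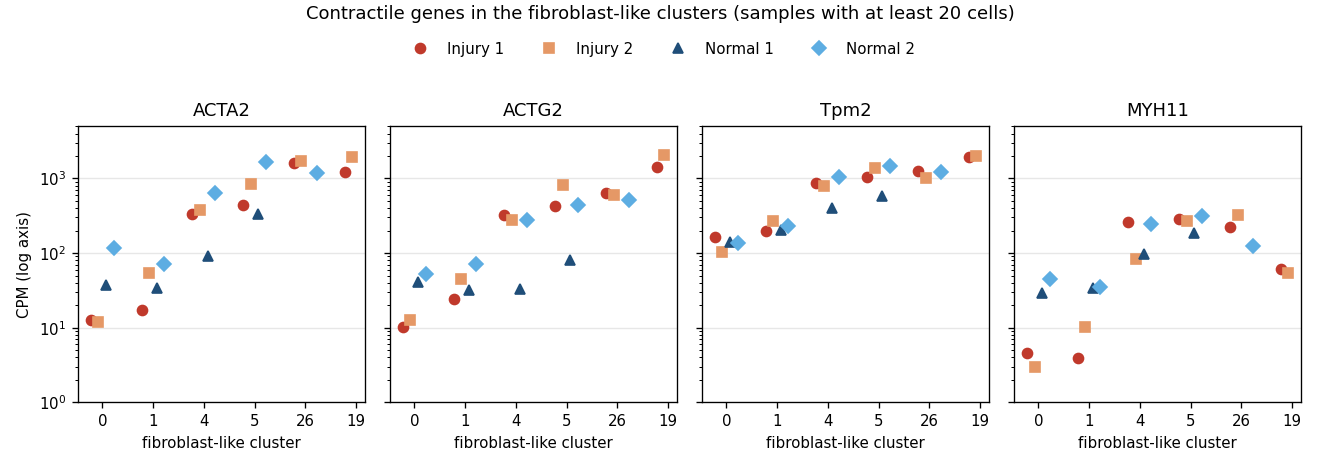
Levels of contractile genes (CPM, log axis) in the fibroblast-like clusters, 1 point per sample with at least 20 cells in the cluster. Within each sample clusters 4 and 5 lie above clusters 0 and 1 for ACTA2, Tpm2 and MYH11, and for ACTG2 except in Normal_1, where cluster 4 (32.5 CPM) is below cluster 0 (41.1 CPM) and level with cluster 1 (32.1 CPM), while cluster 19, with points for the injured samples only, is high in ACTA2, ACTG2 and Tpm2 but not in MYH11.

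Cluster 19, led by COCH, ASPN and COL11A1, held 75 and 91 cells of Injury_1 and Injury_2 but 1 and 2 cells of Normal_1 and Normal_2. In Injury_1 and Injury_2 its ACTA2 was 1223 and 1943 CPM, its ACTG2 1426 and 2075 CPM and its Tpm2 1939 and 1996 CPM, above clusters 0, 1, 4 and 5 of the same samples for all 3 genes. For ACTA2, cluster 26 (1067 to 1713 CPM over all samples, injured and normal) lay above cluster 19 in Injury_1 and below it in Injury_2. MYH11 in cluster 19 was 61.5 and 53.9 CPM, below clusters 4 and 5 and above clusters 0 and 1 of the same samples. LMOD1 and DES in cluster 19 were at 27.0 and 39.5 CPM and at 3.7 and 3.6 CPM. The ratio of MYH11 to ACTG2 was 0.0431 and 0.0260 in cluster 19, against 0.686 and 0.338 in cluster 5, 3.71 and 3.24 in cluster 10 and 0.470 and 0.576 in cluster 24 of the same 2 samples. Markers of fibroblasts summed to 121454 and 132457 CPM in cluster 19, and those of pericytes to 67.6 and 39.5 CPM.

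Within cluster 19 the actin was uneven from cell to cell. An ACTG2 UMI was found in 57.3% and 63.7% of its cells, and the top 10% of cells held 72.4% and 71.9% of the ACTG2 UMIs. MYH11, with 50 and 60 UMIs in all, was found in 9.33% and 20.9% of the cells. In Injury_1 the highest cell alone held 36 of the 50. Of the cells of cluster 19, 17.3% and 24.2% were among the 5% of their library with the highest doublet score. Without them, in an alternative chosen after the data were seen, ACTA2 was 1158 and 2412 CPM, ACTG2 1434 and 2557 CPM and MYH11 18.4 and 68.5 CPM over 62 and 69 cells. With 3 cells in the normal samples, no comparison between conditions could be made in this cluster.

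Detection of several of the 6 genes in the same cell was compared after thinning each cell to 1000 UMIs, since deeper cells show more genes. At least 2 genes were detected in 93.7%, 95.4%, 95.9% and 99.3% of smooth muscle-like cells and in 55.6%, 58.8%, 32.9% and 52.1% of pericyte-like cells of Injury_1, Injury_2, Normal_1 and Normal_2. Among fibroblast-like cells the share was 8.14%, 11.7%, 7.20% and 31.4%, and among endothelial-like cells, the background, 0.258% to 0.648%. The Normal_2 fibroblast-like cells stood apart from the other 3 samples. Epithelial-like cells, which should also lack these genes, had 0.444%, 0.0338%, 0.290% and 3.04%, so the background there was also highest in Normal_2. The part of this background in the fibroblast-like share of Normal_2 was not tested. Before thinning, the median depth was 8013, 8541.5, 5090 and 7021 UMIs in fibroblast-like and 6382, 6258, 4654.5 and 6404 in endothelial-like cells, and the shares with at least 2 genes were 30.4%, 37.4%, 38.0% and 65.8% against 1.86%, 2.39%, 1.75% and 3.84%.

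The share of fibroblast-like cells with at least 2 of the genes averaged 9.93% ± 2.54 (SD, n = 2) in injured and 19.3% ± 17.1 (SD, n = 2) in normal samples, a difference of -9.34 percentage points with overlapping groups (exact permutation test, two-sided, p = 1). With 2 samples against 2 the smallest p this test can give is 0.333. Without Normal_2 the difference was 2.73 points, so at this thinning its direction rested on that library. Thinned to 2000 UMIs, Normal_1 (16.4%) lay between Injury_1 (13.4%) and Injury_2 (18.0%), above their mean (15.7%). Without thinning Normal_1 (38.0%) lay above both (30.4% and 37.4%), so there the direction did not rest on Normal_2. For at least 3 genes at the first thinning, Normal_1 (1.21%) lay below both (3.36% and 5.22%). At that thinning Normal_2 was also the highest sample for at least 2 genes within cluster 5 (29.98%, 46.7%, 19.5% and 63.2%) and cluster 4 (20.6%, 18.3%, 7.80% and 38.4%). The share was at most 4.35% in clusters 0 and 1. Cluster 26 had 40.8%, 35.2%, 58.5% and 54.6%, with 9 cells in Normal_1. Cluster 19 had 32.2% and 38.2% in Injury_1 and Injury_2. Clusters 4 and 5 together supplied more of the class in Normal_2 (27.9% and 29.0%) than in Injury_1 (16.9% and 8.04%), Injury_2 (19.4% and 11.4%) or Normal_1 (17.8% and 20.3%).

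**Figure D3:**
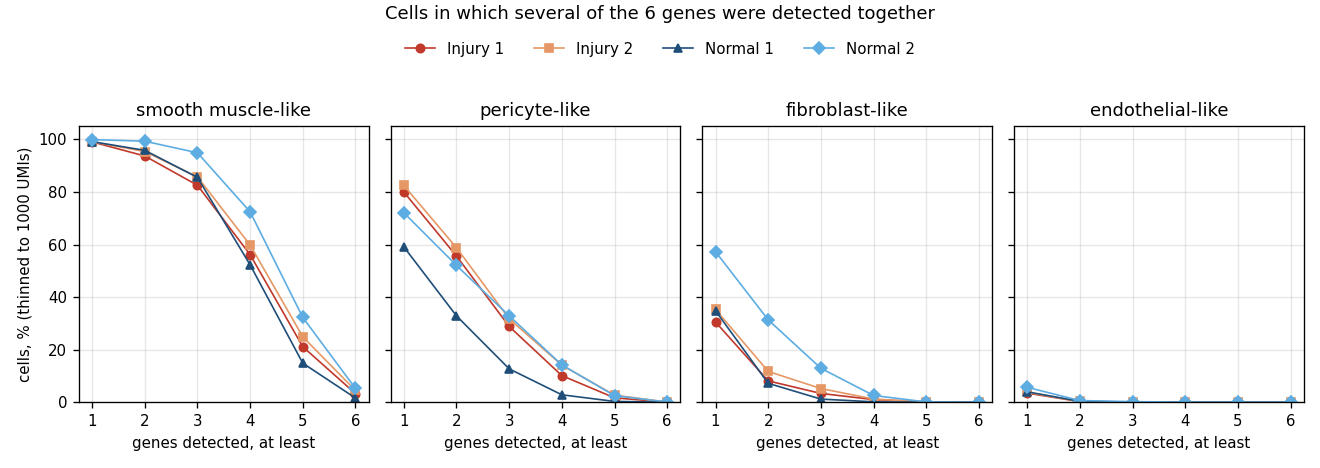
Share of cells (%, each cell thinned to 1000 UMIs) in which at least 1 to 6 of the 6 genes were detected, 1 line per sample, in 4 cell classes. At 2 genes or more, smooth muscle-like cells lie at 93.7% to 99.3%, endothelial-like cells at 0.258% to 0.648%, and Normal_2 (31.4%) lies above the other samples in fibroblast-like cells.

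The genes were also counted one by one. In smooth muscle-like cells thinned to 1000 UMIs, Tpm2 was detected in 94.6% to 98.5%, ACTA2 in 88.97% to 97.3%, MYH11 in 82.9% to 93.4%, ACTG2 in 41.4% to 57.6%, LMOD1 in 21.2% to 39.5% and DES in 15.3% to 18.4% of cells. In fibroblast-like cells Tpm2 was detected in 25.8%, 29.4%, 24.1% and 43.7% and ACTA2 in 5.32%, 8.92%, 8.05% and 28.6%, against 1.20% to 2.10% and 1.18% to 2.54% in endothelial-like cells. DES, in 0.179% to 0.270% of fibroblast-like cells and up to 0.122% of endothelial-like cells, was too rare in fibroblast-like cells for a difference to be read. Without thinning, all 6 genes were found together in 46, 60, 40 and 81 smooth muscle-like cells and in 4, 1, 3 and 2 fibroblast-like cells.

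The actins were found in the same fibroblast-like cells more often than the product of their single shares. After thinning, ACTA2 and ACTG2 were detected together in 2.63%, 4.74%, 0.702% and 9.84% of fibroblast-like cells, 7.76, 5.38, 2.15 and 2.09 times that product. The injured samples had the higher ratios. Within cluster 5 alone the ratio was 3.22, 1.79, 1.46 and 1.25, and in cluster 19 of the injured samples 2.71 and 2.23. Clusters of unequal level and cells of unequal depth share in such a ratio, which is given as a description.

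The next question was whether the genes differed between injured and normal mucosa within each class, tested on the summed UMIs of the 4 samples. All 6 genes passed the filter on low counts in the 3 classes, and none passed an adjusted p of 0.05 in any of them (edgeR quasi-likelihood test, Benjamini-Hochberg adjusted over all genes tested). Of all genes tested, 0.00% of 4981 were called in smooth muscle-like, 0.00% of 5857 in pericyte-like and 0.00% of 8829 in fibroblast-like cells. At an unadjusted p under 0.05 there were 249, 540 and 959, and DESeq2 called 5, 76 and 260. With so few samples a missed call does not show that a gene was equal in both conditions.

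In smooth muscle-like cells the groups overlapped for all 6 genes. Both injured samples lay above both normal samples in 19.9% of all genes tested in this class and below them in 14.8%, so overlap was common. The injured minus normal log2 difference was -0.00 ± 0.25 (SE) for MYH11, -0.16 ± 0.44 for ACTA2, 0.07 ± 0.31 for Tpm2, 0.23 ± 0.33 for DES and -0.11 ± 0.43 for LMOD1, with adjusted p of 0.984 or above. For ACTG2 it was 0.61 ± 0.67 (adjusted p = 0.968), with Normal_1 at 808 CPM below the other 3 samples. Normal_1 also had the fewest cluster 24 cells, 3.62% of the class against 14.5%, 17.9% and 25.4% in Injury_1, Injury_2 and Normal_2. In cluster 10 alone ACTG2 was 1056, 1008, 651 and 1002 CPM. Leaving out 1 library, with the lone sample assumed to vary like the other group, brought 2 of the genes past the threshold: ACTA2 at -0.70 without Normal_1 (adjusted p = 0.0359) and ACTG2 at 2.15 without Normal_2 (adjusted p = 0.00012). The part of the cluster shares in these values was not tested.

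In pericyte-like cells MYH11 was higher in both injured samples (442 and 600 CPM) than in both normal samples (238 and 314), a log2 difference of 0.92 ± 0.30 (unadjusted p = 0.0158, adjusted p = 0.344). LMOD1, at 101.6 and 119 against 36.2 and 78.1 CPM, differed by 0.91 ± 0.38 (unadjusted p = 0.0482, adjusted p = 0.536). Of all genes tested in this class, 19.9% had both injured samples above both normal samples, so 2 of 6 is not far from that share. The 13 smooth muscle markers, all with a UMI in each sample, also summed to more in the injured pericyte-like cells (5300 and 6344 CPM) than in the normal ones (4265 and 4447), and their part in these values was not tested. ACTA2 (0.27 ± 0.69) and Tpm2 (0.41 ± 0.38) had normal samples on both sides of the injured ones. For ACTG2 (0.83 ± 0.81), Normal_1 lay below both injured samples and Normal_2 between them. These differences turned on which normal library was used. Without Normal_2, ACTA2 was 2.19, ACTG2 3.28, MYH11 1.20, Tpm2 1.18 and LMOD1 1.67 higher in injured samples on the log2 scale, each past the threshold (largest adjusted p = 8.6e-05). Without Normal_1, ACTA2 was -0.52, ACTG2 -0.02, Tpm2 -0.08 and MYH11 0.70, and MYH11 alone passed (adjusted p = 0.0309).

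For ACTA2, ACTG2, Tpm2 and LMOD1 the spread between the normal samples was larger than that between the injured ones. For Tpm2, Normal_2 was 2.23 times Normal_1 in pericyte-like and 2.58 times in fibroblast-like cells, and for LMOD1 2.15 and 2.65 times. Injury_2 was 1.03 to 1.17 times Injury_1 for Tpm2 and LMOD1 in these classes. The actins differed more. In pericyte-like cells Normal_2 exceeded Normal_1 6.10 times in ACTA2 and 9.20 times in ACTG2, and in fibroblast-like cells 6.04 and 5.39 times, while Injury_2 and Injury_1 were within 1.17 and 1.04 times in pericyte-like and 1.69 and 1.54 times in fibroblast-like cells. For MYH11 it was not so in pericyte-like cells, where Normal_2 was 1.31 times Normal_1 and Injury_2 1.36 times Injury_1. In fibroblast-like cells these ratios were 1.98 and 0.777. Normal_1 was also the shallowest library and lost the most barcodes to the mitochondrial limit (1388 of 5823). The markers of fibroblasts, which tell of fibroblast RNA among other cells, summed in its smooth muscle-like cells to 1494 CPM against 7523, 16342 and 11108 in Injury_1, Injury_2 and Normal_2. The part of these in the low actin of Normal_1 was not tested.

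In fibroblast-like cells MYH11 was lower in the injured samples (72.0 and 55.9 CPM) than in the normal samples (91.0 and 181), by -0.99 ± 0.41 on the log2 scale (unadjusted p = 0.055, adjusted p = 0.470), and in this class 28.1% of all genes tested had both injured samples below both normal samples and 16.1% above them. ACTA2 (-0.71 ± 0.82), ACTG2 (0.69 ± 0.77), Tpm2 (-0.12 ± 0.49), LMOD1 (-0.05 ± 0.50) and DES (-0.03 ± 0.45) overlapped between the groups. Without Normal_2, ACTG2 was 2.47 higher in the injured samples (adjusted p = 0.0440) and ACTA2 1.20 higher, not past the threshold. In tests of 1 cluster at a time, chosen after the data were seen, MYH11 was lower by -3.27 ± 0.42 in cluster 0 (adjusted p = 0.0841) and by -2.25 ± 0.45 in cluster 1 (adjusted p = 0.0973), where its injured level was at or near the background, and differed by 0.06 ± 0.63 in cluster 4 and 0.09 ± 0.34 in cluster 5, where it was above it. None of these passed. The class was mainly clusters 0 and 1 in the injured samples and in Normal_1, and mainly clusters 4 and 5 in Normal_2.

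Whether the injury difference itself was unequal between classes was tested with the sample as a block. Between fibroblast-like and smooth muscle-like cells none of the 6 genes passed, and 0.00% of 7574 genes did (499 at an unadjusted p under 0.05, DESeq2 32). MYH11 had the largest value, -0.92 ± 0.28 (adjusted p = 0.596), and the other 5 lay between -0.20 and 0.15.

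Between fibroblast-like and pericyte-like cells, in a test added after the data were seen, 2 of the 6 genes passed, both in the direction of a lower injured value in fibroblast-like cells. Of 7741 genes, 1.56% passed, and 0.581% in that direction. For MYH11 the level in fibroblast-like cells was 0.163 and 0.0933 of that in pericyte-like cells of the same sample in Injury_1 and Injury_2, and 0.382 and 0.576 in Normal_1 and Normal_2. The log2 differences of the 2 classes differed by -1.88 ± 0.29 (edgeR, adjusted p = 0.00562). For ACTA2 the ratio was 0.05003 and 0.0721 in the injured and 0.132 and 0.130 in the normal samples, a difference of -1.06 ± 0.21 (adjusted p = 0.0249). While ACTA2 itself differed 6.10 times (pericyte-like) and 6.04 times (fibroblast-like) between the normal samples, its ratio between the classes was nearly equal in them.

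The other members moved less in this ratio. LMOD1 (-0.97 ± 0.29, adjusted p = 0.152) and Tpm2 (-0.52 ± 0.20, adjusted p = 0.287) also had both injured ratios below both normal ones, as 24.9% of all genes tested did. ACTG2 (-0.41 ± 0.28, adjusted p = 0.640) and DES (0.04 ± 0.54) overlapped. The call on ACTA2 was lost without Injury_1 (-0.81, adjusted p = 0.305), with unintegrated clusters (-0.79, adjusted p = 0.129) and with the cells of highest doublet score removed (-1.01, adjusted p = 0.111). MYH11 was called with each library left out in turn (-2.29 to -1.46), but both calls were lost with the replicate number in place of the sample as a block (adjusted p = 0.338 for MYH11 and 0.940 for ACTA2). LMOD1 passed without Normal_1 (-1.05, adjusted p = 0.0165).

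The unequal MYH11 difference came with the fibroblast-like clusters that were low in it. With cluster 0 alone as the fibroblast-like cells it was -4.19 (adjusted p = 0.000318) and with cluster 1 alone -3.24, while with cluster 4 alone it was -0.97 (adjusted p = 0.577) and with cluster 5 alone -0.81 (adjusted p = 0.251). In endothelial-like cells, where MYH11 is background, it was also lower in injured samples, by -1.60 ± 0.30 (adjusted p = 0.526). Endothelial markers in pericyte-like cells, of which 8 or 9 of 9 had a UMI, summed to 113 and 67.5 CPM in the injured and 334 and 599 CPM in the normal samples, and 3.64%, 3.91%, 6.11% and 12.1% of pericyte-like cells were among those of highest doublet score. The part of these in the result was not tested. Without cluster 19, MYH11 was -1.86 and ACTA2 -1.54 (adjusted p = 0.0026).

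**Figure D4:**
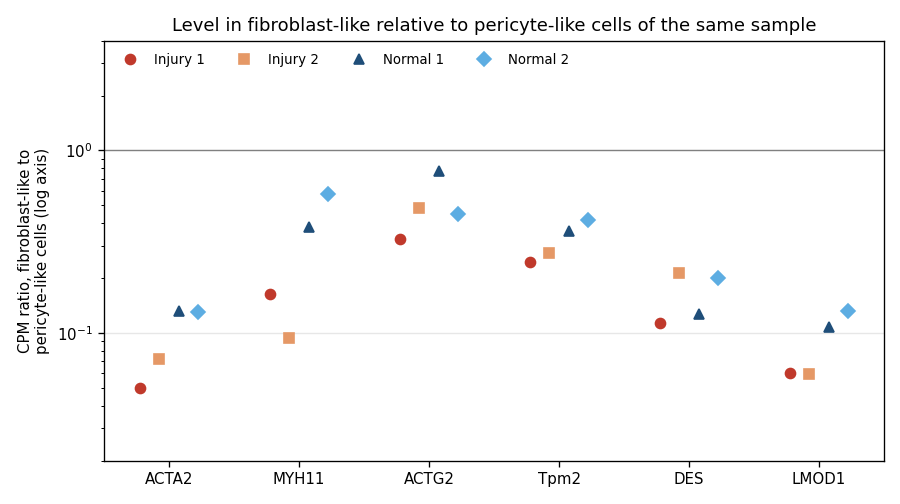
Level of each gene in fibroblast-like cells divided by that in pericyte-like cells of the same sample (CPM ratio, log axis), 1 point per sample, with the line at equal levels. The injured points of MYH11 (0.163 and 0.0933) and ACTA2 (0.05003 and 0.0721) lie below the normal ones (0.382 and 0.576, and 0.132 and 0.130), and those of ACTG2 and DES overlap.

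How many cells of each class were recovered was compared by sample. Smooth muscle-like cells were 2.38% (95% Wilson interval 2.03 to 2.80), 3.04% (2.62 to 3.52), 5.13% (4.51 to 5.83) and 3.47% (3.03 to 3.96) of the cells kept in Injury_1, Injury_2, Normal_1 and Normal_2. The intervals cover counting error only. The injured samples were both lower, 2.71% ± 0.46 (SD, n = 2) against 4.30% ± 1.18 (SD, n = 2), by -1.59 percentage points (exact permutation test, two-sided, p = 0.333, the smallest it can give). Pericyte-like cells were 7.24%, 7.87%, 5.32% and 4.66%, higher in both injured samples by 2.56 points (p = 0.333 in the same exact test).

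The direction for smooth muscle-like cells depended on the limit on mitochondrial RNA, a sign of damaged cells. With cells up to 10% in place of 15%, the shares were 1.38%, 1.43%, 0.795% and 0.516%, a difference of 0.752 points in the opposite direction. The median mitochondrial share of smooth muscle-like cells was 10.0%, 10.7%, 12.6% and 13.1%, close to these limits and above the 7.22% to 8.56% of fibroblast-like cells. Among barcodes above 15%, at least 3 of the 6 genes were detected in 16.9%, 15.5%, 25.1% and 37.8%, against 5.39%, 7.61%, 5.55% and 12.2% of the kept cells (barcodes of at least 1000 UMIs, thinned to 1000). The limit removed barcodes with contractile genes more often than others, in all 4 libraries. For pericyte-like cells the stricter limit gave 5.85%, 6.11%, 2.22% and 1.74%, with the same direction (3.997 points).

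**Figure D5:**
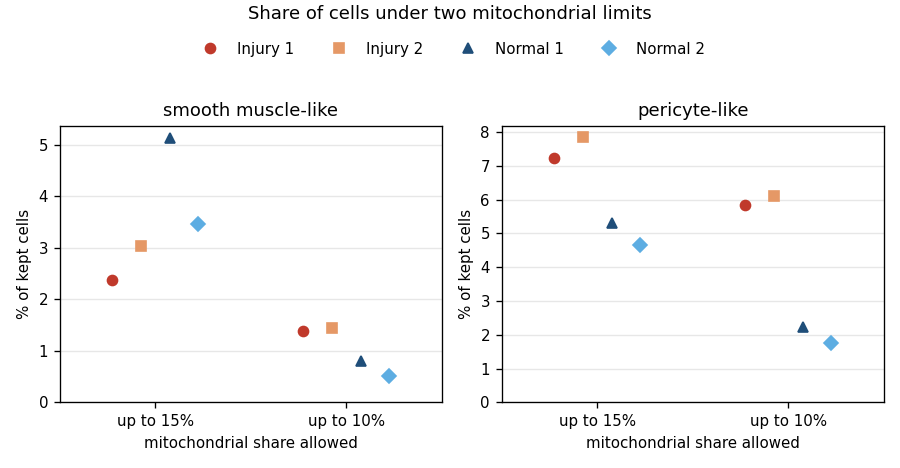
Share of kept cells (%) that were smooth muscle-like or pericyte-like with mitochondrial RNA of up to 15% or up to 10% allowed, 1 point per sample. The injured samples lie below the normal ones for smooth muscle-like cells at 15% (2.38% and 3.04% against 5.13% and 3.47%) and above them at 10% (1.38% and 1.43% against 0.795% and 0.516%), and above them at both limits for pericyte-like cells.

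Other genes of the contractile apparatus were followed in 8 lists of 113 genes, of which 78 carried a symbol in the files. Of these, 68 were tested in smooth muscle-like, 63 in pericyte-like and 72 in fibroblast-like cells, and none was called between injured and normal, beside 0.00% of all genes. The medians of the log2 difference over all genes were -0.01, 0.00 and 0.01 in the 3 classes. The matrix genes of myofibroblasts had medians of 0.83, 0.36 and 0.89, over 10, 9 and 12 genes, the largest of the 8 lists in smooth muscle-like and fibroblast-like cells. The transcription factors and co-factors of the smooth muscle programme stood at -0.01, 0.56 and 0.34, the largest in pericyte-like cells, the actin filament proteins at -0.11, 0.41 and -0.05 and the myosins at 0.24, 0.35 and -0.39. The receptors of smooth muscle had medians of 0.09, 0.11 and 0.52, the dense body and adhesion proteins 0.06, 0.21 and 0.11, the contraction signalling genes -0.10, 0.17 and -0.10 and the 2 intermediate filament genes 0.18, -0.06 and 0.13. ACTA2, ACTG2, Tpm2 and LMOD1 were among the actin filament proteins, MYH11 among the myosins and DES among the intermediate filament genes. The medians of these lists include the members' own values and are not separate from them.

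In the added test of fibroblast-like against pericyte-like cells, 71 list genes were tested, and 2 were called higher and 5 lower, beside 0.982% and 0.581% of all genes. ACTA2 and MYH11 were 2 of the lower ones. PDE5A, which breaks down the relaxing messenger cyclic GMP, stood at 52.0, 80.7, 160 and 204 CPM in fibroblast-like and 214, 278, 282 and 222 CPM in pericyte-like cells, and its difference was -1.39 ± 0.25 (adjusted p = 0.0125). PPP1R14A, an inhibitor of myosin phosphatase, stood at 87.3, 148, 167 and 315 CPM and at 216, 267, 78.3 and 329 CPM, with -1.43 ± 0.32 (adjusted p = 0.0452). Among the fibroblast-like cells of the 4 samples both genes were lowest in Injury_1 and highest in Normal_2, and both injured samples lay below both normal ones.

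The matrix list split in the same test. COL12A1, a collagen of fibril surfaces, was at 134, 220, 461 and 923 CPM in fibroblast-like and 50.1, 81.8, 42.1 and 69.9 CPM in pericyte-like cells, a difference of -2.12 ± 0.23 (adjusted p = 0.00044). FAP, a surface protease of activated fibroblasts, was at 21.4, 37.2, 10.1 and 4.26 CPM and at 74.6, 59.8, 98.2 and 46.6 CPM, a difference of 2.19 ± 0.36 (adjusted p = 0.0086). CCN2, the connective tissue growth factor, was at 191, 513, 43.8 and 164 CPM and at 52.4, 101, 39.7 and 78.1 CPM, a difference of 1.46 ± 0.30 (adjusted p = 0.0253). In fibroblast-like cells COL12A1 was lower and FAP and CCN2 were higher in both injured samples than in both normal ones.

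The genes whose levels followed the 6 members most closely were sought over 41 combinations of class and sample from 12 classes, by Pearson's r with the members' mean log2(CPM + 10). They were IRAG1 (0.98), MYL9 (0.97), AOC3 (0.96), SLC2A4 (0.95), ADCY5 (0.94), CACNA1C (0.94), PDE1A (0.94) and PDILT (0.93). MYL9 is a regulatory light chain of smooth muscle myosin, CACNA1C the pore of the L-type calcium channel and IRAG1 a target of cyclic GMP signalling at calcium stores. MYL9 ranged over 100 to 176 CPM in smooth muscle-like, 26.9 to 59.8 in pericyte-like and 4.04 to 25.7 in fibroblast-like cells, and IRAG1 over 136 to 187, 38.6 to 61.7 and 14.1 to 31.9 CPM. Each of the members itself gave 0.89 (DES) to 0.98. The points share libraries and classes, and the order is a description.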

How the data were processed

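Bladder mucosa of 2 injured and 2 normal rabbit samples was measured by 3′ single-cell RNA sequencing. The deposited matrices hold UMI counts per gene and cell barcode that the authors made with Cell Ranger 6.0.1 (version from the matrix header). The genome build is not given in the sources used here, and Seurat is named in the submitters' processing notes without a version. The counts were used as deposited, and 0 columns of other samples were set aside.

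A barcode was kept as a cell if it had 500 UMIs and 200 genes or more and no more than 15% of its UMIs came from 13 mitochondrial genes. Seurat 5.3.0 integrated the samples (CCA, 2000 variable genes without the 6 contractile genes, 30 principal components, resolution 0.8, 29 clusters). Clusters were named from listed markers, where at least 3 were raised 2-fold or more, and the naming rule was settled after the clusters were seen. Scrublet (scanpy 1.11.5) called 0.412% to 2.83% of cells doublets, under 0.5% in 1 library, so its calls were not used and the top 5% of scores were removed as an alternative. Thinned shares are exact expectations over draws of 1000 UMIs, with shallower cells left out.

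UMI counts were summed per class and sample (at least 20 cells) and tested with edgeR 4.0.16 (quasi-likelihood, filterByExpr, TMM, Benjamini-Hochberg over all genes tested, threshold 0.05) in R 4.3.3, with DESeq2 1.42.0 as an alternative. Unequal differences between classes were tested with sample as a block. Shares were compared by exact permutation tests (scipy 1.17.1). The scripts were tested on simulated data. Named genes were the 6 members, up to 3 risers and 3 fallers per list and comparison, and the 8 genes of most similar pattern. The members and lists were chosen with earlier results of these data known. The alternatives were other scaling, no filter, DESeq2, the replicate number as a block, leaving out each library, resolution 0.4, members kept in clustering, no integration, a 10% mitochondrial limit and removal of high doublet scores. Tests of fibroblast-like against pericyte-like cells, of single clusters and without cluster 19 were added after the data were seen.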

Additional observations from a re-analysis of the deposited data

Results flagged for a closer look

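For MYH11 and ACTA2 the injured minus normal difference was unequal in fibroblast-like and pericyte-like cells by the test of that difference (edgeR quasi-likelihood test with sample as a block, added after the data were seen). MYH11 differed by -1.88 on the log2 scale (adjusted p = 0.00562), from 0.92 ± 0.30 in pericyte-like and -0.99 ± 0.41 in fibroblast-like cells. ACTA2 differed by -1.06 (adjusted p = 0.0249), from 0.27 ± 0.69 in pericyte-like and -0.71 ± 0.82 in fibroblast-like cells. Its call was lost without Injury_1 (adjusted p = 0.305), without integration (0.129) and with high doublet scores removed (0.111), and the calls on both genes were lost with the replicate number in place of the sample as a block (0.338 for MYH11 and 0.940 for ACTA2). Of all genes tested, 1.56% passed, and 0.581% in the direction of these 2 genes. In both genes the ratio of fibroblast-like to pericyte-like level was lower in 2 of 2 injured samples than in either normal sample. The same held for 24.9% of all genes tested. The groups of 2 samples were too small to be searched for a sample far from the others.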

How the results depend on the processing

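Each of the values was recomputed under each alternative, with the sets of cells named as in the report unless the clusters themselves were rebuilt. The share of cells that were smooth muscle-like was reversed with the 10% mitochondrial limit (0.752 points in place of -1.59), and it was -2.42 to -0.756 with each library left out in turn. The pericyte-like share difference was 2.24 to 2.89 points and the co-detection difference -21.4 to 2.73 points in the same way. Without thinning the co-detection difference was -18.0 points (exact permutation p = 0.333), with 2000 UMIs -15.3 (p = 0.667), with at least 3 genes -2.78 and without cluster 19 -10.3.

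The number of genes called between injured and normal moved with the method. In smooth muscle-like cells it was 100 without the filter on low counts, 5 with DESeq2 and 1 with the replicate number as a block, and 1 to 348 with a library left out. In pericyte-like cells it was 221, 76 and 8, with 4 at resolution 0.4, 27 with the 10% limit and 73 to 828 with a library left out. In fibroblast-like cells it was 508, 260 and 232, with 1, 20 and 23 in clusters 0, 1 and 5 alone and 6 to 202 with a library left out. For unequal differences between fibroblast-like and smooth muscle-like cells it was 124 without the filter, 32 with DESeq2, 11 without integration, 37 with the 10% limit, 7 without high doublet scores, 12 with cluster 10 alone and 0 to 198 with a library left out. Between fibroblast-like and pericyte-like cells the 121 genes became 310 without the filter, 78 without integration, 57 without high doublet scores, 77, 55 and 50 with clusters 0, 4 and 5 alone, and 104 to 447 with a library left out (447 without Normal_1). The replicate number in place of the sample as a block left 0, with MYH11 at -1.84 (adjusted p = 0.338) and ACTA2 at -1.13 (adjusted p = 0.940). A left-out library leaves 1 sample in its group, which is assumed to vary like the other group. The cause of these shifts was not tested.

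The replicate numbers pair samples by label only: the deviations of the same-numbered pairs correlated at 0.1503, 0.0556 and 0.190 in smooth muscle-like, pericyte-like and fibroblast-like cells over 2 pairs, and nothing was crossed. With the replicate block the log2 difference in smooth muscle-like cells was 0.0025 for ACTA2, 0.022 for MYH11 and 0.015 for LMOD1, and in fibroblast-like cells 0.065 for Tpm2 and 0.12 for LMOD1, each opposite in sign to the value without it and none called.

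Small differences of single members changed sign elsewhere. In smooth muscle-like cells MYH11 was 0.011 with the members kept in clustering and 0.12 without integration, Tpm2 -0.15 with the 10% limit, -0.064 with pericyte-like cells joined and -0.10 in cluster 10 alone, and DES -0.21 with pericyte-like cells joined. In pericyte-like cells ACTA2 was -0.0079 without integration, and DES 0.49 with the members kept, 0.94 without integration and 0.28 with the 10% limit. DES in fibroblast-like cells was 0.0071 without the filter. For fibroblast-like against smooth muscle-like cells ACTG2 was -0.0046 without integration and Tpm2 0.084 with cluster 10 alone. For fibroblast-like against pericyte-like cells DES was -0.40 at resolution 0.4, -0.66 with the members kept, -1.0 without integration, -0.56 with the 10% limit, -0.039 without high doublet scores and -0.0068 without cluster 19. Past the threshold in the same test were Tpm2 at -0.87 (adjusted p = 0.0462) and LMOD1 at -1.56 (adjusted p = 0.0373) with the 10% limit.

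With a library left out in turn, the smooth muscle-like range was -0.70 to 0.70 for ACTA2, -0.24 to 0.28 for MYH11, -0.12 to 2.15 for ACTG2, -0.30 to 0.56 for Tpm2, -0.067 to 0.62 for DES and -0.61 to 0.66 for LMOD1. The pericyte-like range was -0.52 to 2.19 for ACTA2, -0.016 to 3.28 for ACTG2, -0.078 to 1.18 for Tpm2 and -0.81 to 0.56 for DES. The fibroblast-like range was -1.51 to 1.20 for ACTA2, -0.081 to 2.47 for ACTG2, -0.68 to 0.81 for Tpm2, -0.38 to 0.31 for DES and -0.58 to 0.94 for LMOD1. Against smooth muscle-like cells it was -0.82 to 0.43 for ACTA2, -0.025 to 0.33 for ACTG2, -0.34 to 0.22 for Tpm2 and -1.03 to 0.41 for DES, and against pericyte-like cells -0.42 to 0.46 for DES. Of all member values under the alternatives, 71 of 90 kept their direction and their side of the threshold in smooth muscle-like, 64 of 78 in pericyte-like and 73 of 84 in fibroblast-like cells, 76 of 84 in the first and 68 of 84 in the second test of unequal differences. Depth limits DES most, with 31, 25, 21 and 14 UMIs in the pericyte-like cells of Injury_1, Injury_2, Normal_1 and Normal_2.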

Other observations

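Cluster 26, a fibroblast-like cluster led by the cell division genes ANLN and CCNB2 among others, held 23, 35, 9 and 35 cells of Injury_1, Injury_2, Normal_1 and Normal_2, and 56.5%, 34.3%, 33.3% and 11.4% of them were among the 5% of their library with the highest doublet score. ACTA2 was 1599, 1713, 1067 and 1170 CPM and Tpm2 1263, 1014, 1242 and 1224 CPM there. MYH11 was 221, 321, 1449 and 126 CPM, the Normal_1 value resting on 9 cells.

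Cells that should lack contractile genes differed between libraries. In epithelial-like cells ACTA2 was 13.8, 6.59, 9.29 and 81.9 CPM, MYH11 6.62, 3.92, 6.45 and 51.0 CPM and Tpm2 10.5, 11.4, 8.91 and 42.8 CPM in Injury_1, Injury_2, Normal_1 and Normal_2. In immune cells ACTA2 was 47.1, 16.3, 18.7 and 67.4 CPM. Normal_2 was highest in each of these 4 sets.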
